A study of Homo sapiens with 96 samples.

Results

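The libraries described here measure mRNA levels in melanoma cells with an inhibited MAPK pathway after transcription was blocked, with or without a block of translation. They are 12 of the 96 libraries of the series: 6 of cells given triptolide alone (T), harvested at 3 h or 5 h, and 6 of cells given triptolide and cycloheximide (TCHX) at the same times, with 3 libraries a group. They were chosen by their labels alone, TCHX being set against T at each time. All 12 come from A375, an established human melanoma line with a mutated BRAF kinase, and all were pretreated for 18 h with 500 nM vemurafenib, a BRAF inhibitor, plus 500 nM cobimetinib, a MEK inhibitor (together MAPKi). Triptolide was given at 25 µM in both arms. TCHX cells also received 100 µg/ml cycloheximide, starting 5 min before triptolide. The initial level of an mRNA was taken from 3 MAPKi libraries given vehicle and harvested at 0 h. Cells pretreated for 18 h with DMSO in place of the inhibitors, and MAPKi cells given cycloheximide without triptolide, served for comparison. Each time was a set of its own, plated and treated alongside the others, so T and TCHX are compared within a set, while differences between times cannot be told apart from differences between sets. All cells are of 1 line, the RNA was cytoplasmic, and the reads came from the 3′ ends of polyadenylated transcripts (QuantSeq).

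Triptolide stops transcription by RNA polymerase II, so the level of an mRNA afterwards reflects how fast the existing copies are removed. Cycloheximide stalls elongating ribosomes and leaves them on the mRNA. Removal of many mRNAs is coupled to their translation: nonsense-mediated decay reads a premature stop through a terminating ribosome, slow codons mark transcripts for deadenylation and decapping, and AU-rich elements recruit deadenylases to the short-lived mRNAs of immediate-early genes. In bulk RNA, fewer cells and less RNA per cell cannot be told apart.

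The 12 libraries held between 4744272 and 10642109 counts each (median 6846902). The filter on low counts left 14948 genes. Values are normalized counts, that is, counts divided by a size factor from 36 genes whose share of the total rose after triptolide alone (stable-gene scaling), unless said otherwise. Log2 differences come with the standard error (SE) of an edgeR quasi-likelihood fit and count as called where the p adjusted by Benjamini and Hochberg's method was under 0.05. Of 11 melanocyte lineage markers, 0 lacked counts. SOX10, MITF and DCT, at 2475, 3595 and 15722 normalized counts on average in the vehicle libraries at 0 h, carried most of the level, while the pigment markers MLANA and TYR were near 0, at 8.87 and 1.67. The summed level at 0 h was 20869.7 to 29742 normalized counts. It was 13584 to 18172 in T and 15845 to 22644 in TCHX. Of markers of other cells, 2 of 5 keratinocyte, 2 of 5 leukocyte, 1 of 3 endothelial and 1 of 4 fibroblast markers had no count, among them KRT5, CD3E, CDH5 and COL3A1. Their sums reached at most 985, 144, 15.6 and 57.2, and KRT10 (906 ± 97.8 at 0 h) and CD68 (115 ± 16.8) made up most of the first 2. Nothing states that the libraries of a group came from separate cultures. The edgeR p-values thus measure the spread between libraries of a group, fitted over all 96 libraries, and that spread may be technical. There were no molecular identifiers, and whether counting used strand is not given in the sources used here, so counts of genes with an overlapping or antisense partner are uncertain.

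With stable-gene scaling, more mRNA was left with both inhibitors than with triptolide alone. Over the 11128 genes with at least 20 normalized counts initially, the median share of the initial level left at 3 h was 70.4%, 69.2% and 73.8% in the T libraries and 83.8%, 85.2% and 88.9% in the TCHX libraries. At 5 h it was 59.2%, 61.8% and 61.6% in T and 84.4%, 82.4% and 85.9% in TCHX. Every TCHX library lay above every T library at both times. The T mean fell from 71.2% ± 2.39 to 60.9% ± 1.44 (SD, n = 3), whereas the TCHX means were 86% ± 2.6 and 84.2% ± 1.73 (SD, n = 3). The arms differed by 14.8 percentage points at 3 h and 23.4 at 5 h, each with an exact two-sided permutation p of 0.1, the smallest that 3 against 3 libraries allow. These shares rest on the scaling by stable genes, which were chosen by their rise in T libraries with no condition on TCHX. That choice favours lower shares in T. The labels T and TCHX are thus not interchangeable, and no conclusion is drawn from the permutation p. With TMM scaling, which centres the bulk of genes, the differences were −1.66 and −0.674 percentage points. With scalings that do not centre all genes they were 7.16 and 6.61 (genes stable in both triptolide arms) and 6.48 and 10.8 (total counts). The size of the shift, and whether it was larger at 5 h, thus rest on the choice of scaling. Changes of single genes are therefore read against the median of all genes.

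**Figure D1:**
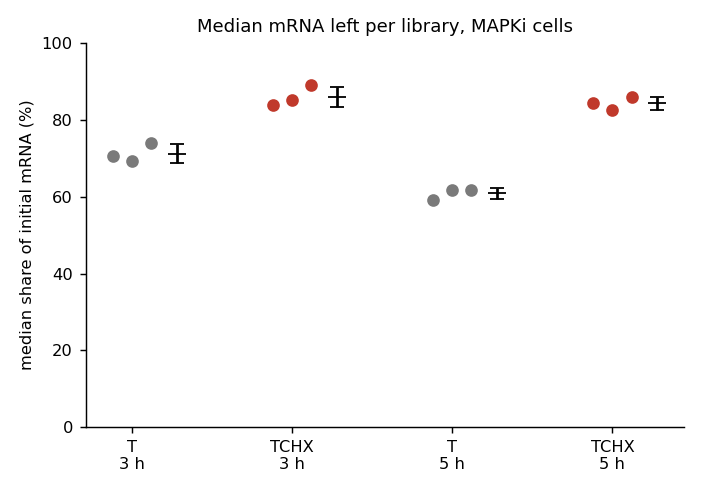
Median share of the initial mRNA level left per library (percent), over genes with at least 20 normalized counts in MAPKi vehicle libraries at 0 h. Points are libraries and the bars beside them the mean and SD of 3; grey T, red TCHX. With stable-gene scaling, all TCHX points sit above all T points at 3 h and at 5 h.

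The first question was which mRNAs differed between TCHX and T. Averaged over 3 and 5 h, 6194 genes (41.4% of those tested) were higher and 80 (0.535%) lower in TCHX, and the median log2 difference of all genes was 0.34. With TMM scaling the split was 2825 higher (18.9%) and 2261 lower (15.1%), with a median of −0.047. A log2 difference above 1 was called for 2040 genes with stable-gene scaling and for 1138 with TMM scaling, and above 3 for 218 and 157. Every TCHX library exceeded every T library at both times for 3700 genes (24.8%), and the reverse held for 16 (0.107%). At 0 h, when the inhibitors had just been added, 0 genes were higher and 2 (0.0134%) lower by edgeR (220 and 942 at an unadjusted p under 0.05, 2 called by DESeq2). Both had an SD above the mean in T: EEF1D had 1096 ± 1880.3 in T and 8.15 ± 2.2 in TCHX, and EIF3C 583 ± 925 and 24.2 ± 12.6 (SD, n = 3 each).

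The largest differences that held with both scalings, and with no overlap between the arms, are described for 11 mRNAs. They included those of transcription factors, signalling inhibitors and a death adaptor. JUN, a subunit of the AP-1 transcription factor (GRCh38 chr1:58776845-58784048, minus strand, a gene of 1 exon), had 1878, 2022 and 1887 normalized counts initially. With triptolide alone it was at 10.3, 32.6 and 29.4 at 3 h and 10.7, 12.1 and 10.6 at 5 h, whereas with cycloheximide added it was at 912, 1034 and 1127 and 699.6, 714 and 850.3. All 6 TCHX libraries were above all 6 T libraries, with a log2 difference of 5.73 ± 0.14 (SE; edgeR adjusted p 1.85e-49).

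GADD45B, a stress-induced activator of p38 and JNK signalling (GRCh38 chr19:2476122-2478259, plus strand), had 1393, 783 and 1399 initially, 12.3, 11.5 and 35.5 in T at 3 h and 6.43, 16.1 and 6.35 at 5 h. In TCHX it had 699, 606 and 991 at 3 h and 598, 543 and 676 at 5 h, or 64.2% and 50.8% of the initial mean, for a log2 difference of 5.62 ± 0.24 (adjusted p 1.80e-34). SERTAD1, a regulator of cell cycle and transcription (GRCh38 chr19:40421589-40425992, minus strand), had the highest share left of the 11: 166, 202 and 206 at 3 h and 185, 184 and 177 at 5 h in TCHX, against 202, 174 and 152 initially and 1.43, 0.577 and 3.17 in T at 5 h. Its TCHX mean was 104% of the initial mean at 5 h, where T left 0.982%.

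NFKBIA, the inhibitor IκBα of NF-κB (GRCh38 chr14:35401079-35404749, minus strand), was lost in part in TCHX. It had 802, 706 and 820.2 initially, 15.7, 6.64 and 8.12 in T and 253, 266 and 276 in TCHX at 3 h, and 0.715, 12.1 and 8.47 and 71.3, 96 and 93.9 at 5 h. The TCHX level at 5 h was 11.2% of the initial mean. SOX2, a transcription factor of stem cells and the neural lineage (GRCh38 chr3:181711925-181714436, plus strand, inside the noncoding gene SOX2-OT on the same strand, so its counts are uncertain), had 475, 629 and 535 initially and 319, 364 and 418 in TCHX at 5 h, where the T libraries had 11.4, 11 and 14.8. FADD, the adaptor of death receptors (GRCh38 chr11:70203296-70207390, plus strand, with an antisense gene), had 31.5, 30.2 and 52.8 in T at 3 h and 2.14, 4.04 and 9.52 at 5 h, and 285, 369 and 358 and 233, 268 and 247 in TCHX.

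The other 5 of the 11 are given as group means. BAMBI, a decoy receptor of TGF-β signalling, had 142 ± 12.9 initially, 1.3 ± 1.67 in T and 64.1 ± 5.36 in TCHX at 5 h (SD, n = 3 each). RGS3, which ends G protein signalling and has an antisense gene, had 64.4 ± 20.7, 1.67 ± 2.89 and 52.3 ± 21.3 in the same order. NFIL3, a transcriptional repressor, had 239 ± 39.8, 3.67 ± 3.41 and 60.1 ± 27.9. CCDC71 had 185 ± 9.21, 2.09 ± 1.5 and 101 ± 15.5, and NXT1, a cofactor of mRNA export with an antisense gene, 92.9 ± 15.2, 1.63 ± 1.74 and 61.2 ± 21.6. The log2 differences of these 5, averaged over both times, were 5.31 for BAMBI, 4.86 for RGS3, 4.32 for NFIL3, 4.30 for CCDC71 and 4.29 for NXT1, with adjusted p-values of 3.83e-18 or less. For BAMBI, RGS3 and NXT1 at least 1 T library had 0 counts, so these values rest on few reads.

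**Figure D2:**
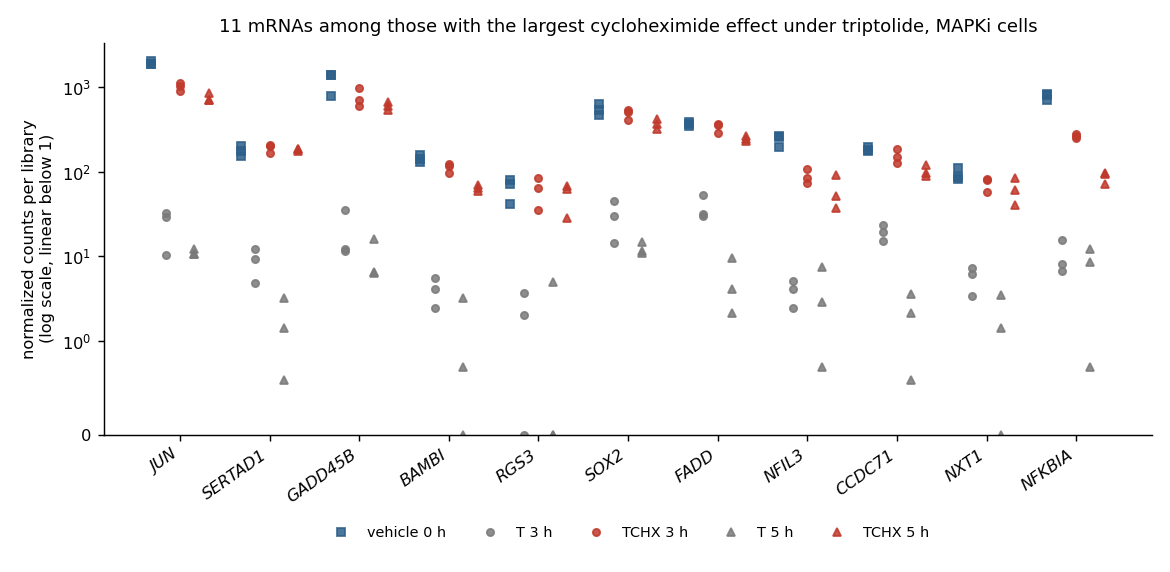
Normalized counts per library (log scale, linear below 1) of 11 genes among those with the largest differences, in MAPKi vehicle libraries at 0 h (blue squares), T (grey) and TCHX (red) at 3 h (circles) and 5 h (triangles), 3 libraries each. Red points lie above the grey points of the same time for every gene.

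The 3′ UTRs of 5 of the 11 hold the AU-rich heptamer TATTTAT, searched on the transcript strand only. These windows give the first such site of each 3′ UTR in the 5′ to 3′ direction with 9 bases on each side, read from GRCh38, the build named in the submitters' processing notes. They lie at chr1:58780821-58780845 on the minus strand for JUN, chr19:40421752-40421776 on the minus strand for SERTAD1, chr9:113597367-113597391 on the plus strand for RGS3, chr3:181713785-181713809 on the plus strand for SOX2 and chr14:35401701-35401725 on the minus strand for NFKBIA. The capitals mark the heptamer.
JUN: gcttatgaaTATTTATaacagcatt
SERTAD1: gtctacctgTATTTATtgaggagcg
RGS3: tttgagtttTATTTATttaaatagt
SOX2: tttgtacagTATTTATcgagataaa
NFKBIA: cacattttaTATTTATtgtgcttcg
NFKBIA has 2 sites and the other 4 have 1. The share of 5 of 11 lies near that of all genes: 3845 of 10081 coding genes with at least 20 normalized counts initially (38.1%) hold a site, over 3′ UTRs of differing lengths. Over those genes the median log2 difference was 0.32 without a site, 0.39 with 1, 0.39 with 2 and 0.36 with 3 or more. A match is a description of letters and not a shown binding site.

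Gene lists were read against all genes tested, of which 41.4% were higher, with a median of 0.34 (−0.047 with TMM). That share includes genes of low counts. Among coding genes with at least 20 normalized counts initially, it was 52.6% without a TATTTAT site and 56.8% to 58.0% with sites. A list share between 41.4% and these values is thus not above that of well-measured genes. Members passed the test with stable-gene scaling unless said otherwise, and no list was tested as a set. The mark not called refers to that scaling alone. Some genes so marked were called lower with TMM scaling, among them TPT1 and UQCRB (edgeR adjusted p 3.12e-07 and 8.26e-08). Of 39 tested of 41 listed immediate-early and short-lived mRNAs, among them transcription factors and feedback regulators, 30 were higher and 0 lower in TCHX (median log2 difference 2.19), or 29 higher and 0 lower with TMM scaling (median 1.96). By initial level, the leading members were BTG1 at 2.84 ± 0.097 (2.46 with TMM), JUN at 5.73 ± 0.14 (5.34 with TMM) and PLK2 at 3.93 ± 0.14 (3.54 with TMM). The lowest was BTG2 at −1.08 ± 1.08 (−1.46 with TMM, not called). BTG1, an antiproliferative protein that binds deadenylases, had 7180.1 ± 337 initially, 287 ± 41 in T at 5 h and 3592 ± 357 in TCHX. PLK2, a stress-induced kinase, had 1895 ± 149, 34.6 ± 13 and 711 ± 34.4 (SD, n = 3 each). Some of the list could not be measured in T: 9 members had at most 3 counts in every T library, and 1 had none in any. BTG2, a paralog of BTG1, was at 11.2 ± 9.53 initially and near 0 in both arms. At 5 h, the list's median share left was 3.95% in T and 39.5% in TCHX over the 28 members with at least 20 normalized counts initially. Of 14 genes of the ERK feedback programme, which ERK signalling induces, 6 were higher and 0 lower in TCHX (median log2 difference 0.59), or 5 higher and 0 lower with TMM scaling (median 0.32). Its 3 most abundant mRNAs were PHLDA1 at 3.65 ± 0.16 (3.27 with TMM), SPRED1 at 0.90 ± 0.088 (0.52 with TMM) and DUSP4 at 2.88 ± 0.13 (2.50 with TMM). The top of the list was DUSP5 (0 counts in all 6 T libraries) and the lowest was SPRY1 at −0.072 ± 0.46 (−0.44 with TMM, not called). DUSP5, a nuclear ERK phosphatase, had 0 counts in all 6 T libraries and 8.48 normalized counts on average over the 6 TCHX libraries, at least 23.1-fold higher against a floor of 3 counts over the 6 T libraries. DUSP4, another ERK phosphatase, had 6.65 ± 1.19 in T and 119.7 ± 12.1 in TCHX at 5 h, and PHLDA1 22.8 ± 11.7 and 433 ± 87.7 (SD, n = 3 each). Of 379 tested of 478 listed zinc finger genes named ZNF, many of which regulate transcription, 282 were higher and 0 lower in TCHX (median log2 difference 1.28), or 221 higher and 4 lower with TMM scaling (median 0.89). Those with the most counts at 0 h were ZNF106 at 0.12 ± 0.11 (−0.27 with TMM, not called), ZNF24 at 1.64 ± 0.069 (1.25 with TMM) and ZNF428 at 0.16 ± 0.12 (−0.22 with TMM, not called). Highest stood ZNF792 (0 counts in all 6 T libraries) and the lowest was ZNF528 at −0.33 ± 0.55 (−0.72 with TMM, not called). ZNF792 had 0 counts in all 6 T libraries and was at least 29.99-fold higher in TCHX, by the same floor. ZNF24 fell to 268 ± 22.9 in T at 5 h from 1679.6 ± 69.2 initially, and was at 1079.5 ± 144 in TCHX (SD, n = 3 each). Over the 301 ZNF genes with at least 20 normalized counts initially, the median share left at 5 h was 21.4% in T and 65.5% in TCHX.

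Targets and factors of nonsense-mediated decay, which needs translation to find its substrates, were mostly higher in TCHX with stable-gene scaling. Of 17 tested of 18 listed genes described as its targets, 16 were higher and 0 lower in TCHX (median log2 difference 0.76), or 10 higher and 1 lower with TMM scaling (median 0.38). Among the members, the highest initial levels were those of UPP1 at 0.22 ± 0.088 (−0.17 with TMM), ATF4 at 1.48 ± 0.11 (1.09 with TMM) and GADD45B at 5.62 ± 0.24 (5.24 with TMM). At the low end stood TMEM183A at 0.16 ± 0.097 (−0.23 with TMM, not called). ATF4, the effector of the integrated stress response, whose mRNA carries upstream open reading frames, had 1772 ± 236 initially, 549 ± 166 in T and 1951 ± 358 in TCHX at 5 h (SD, n = 3 each). Of 14 tested of 15 listed genes of the decay machinery, 14 were higher and 0 lower in TCHX (median log2 difference 0.75), or 9 higher and 0 lower with TMM scaling (median 0.36). Among the most abundant members were RBM8A at 0.58 ± 0.087 (0.20 with TMM) and UPF3B at 0.97 ± 0.085 (0.58 with TMM). The highest difference was SMG8 at 2.69 ± 0.21 (2.30 with TMM). SMG8, a cofactor of the SMG1 kinase, had 10.8 ± 9.43 in T and 133 ± 33.9 in TCHX at 5 h (SD, n = 3). Of 25 tested of 27 listed splicing regulators, many of which limit themselves through poison exons, 20 were higher and 0 lower in TCHX (median log2 difference 0.49), or 10 higher and 1 lower with TMM scaling (median 0.10). By initial level, the leading members were SRSF11 at 0.46 ± 0.063 (0.076 with TMM), HNRNPA2B1 at 0.10 ± 0.12 (−0.28 with TMM, not called) and HNRNPDL at 0.49 ± 0.050 (0.10 with TMM). The largest value was CLK1 at 2.94 ± 0.20 (2.55 with TMM) and the lowest was SRSF9 at 0.076 ± 0.10 (−0.31 with TMM, not called). CLK1, a kinase of SR proteins, was at 168 ± 15.9 initially, 8.03 ± 4.65 in T and 99.5 ± 28.8 in TCHX at 3 h. Of 23 tested of 25 listed genes of the ATF4 programme, 12 were higher and 0 lower in TCHX (median log2 difference 0.37), or 8 higher and 5 lower with TMM scaling (median −0.016). Its 3 most abundant mRNAs were SLC7A5 at 0.14 ± 0.099 (−0.24 with TMM, not called), ATF4 at 1.48 ± 0.11 (1.09 with TMM) and SLC3A2 at 0.49 ± 0.066 (0.099 with TMM). The top of the list was DDIT3 at 3.32 ± 0.15 (2.93 with TMM) and the lowest was PSAT1 at −0.033 ± 0.12 (−0.42 with TMM, not called). DDIT3, a stress transcription factor, had 8.39 ± 4.82 in T and 179 ± 16.7 in TCHX at 5 h, and its counts are uncertain since it overlaps other genes. ATF3, ATF4, DDIT3, SESN2 and TRIB3 stand in 2 of the lists.

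Genes of cell division, DNA repair and DNA replication were mostly higher in TCHX with stable-gene scaling, with medians of 0.48 to 0.62. Of 46 tested of 48 listed cell division genes, 43 were higher and 0 lower in TCHX (median log2 difference 0.62), or 27 higher and 0 lower with TMM scaling (median 0.23). Those with the most counts at 0 h were CENPF at 0.62 ± 0.079 (0.23 with TMM), SMC4 at 0.69 ± 0.085 (0.30 with TMM) and PTTG1 at 0.34 ± 0.074 (−0.047 with TMM). Highest stood HJURP at 2.12 ± 0.085 (1.74 with TMM) and the lowest was KIF20A at 0.12 ± 0.17 (−0.26 with TMM, not called). HJURP, the chaperone of the centromeric histone CENP-A, had 861 ± 10.6 initially and 851 ± 32.9 in TCHX at 5 h, against 139.6 ± 27.2 in T (SD, n = 3 each). Of 68 tested of 71 listed DNA repair genes, 57 were higher and 0 lower in TCHX (median log2 difference 0.57), or 23 higher and 5 lower with TMM scaling (median 0.18). Among the members, the highest initial levels were those of XRCC5 at 0.18 ± 0.049 (−0.21 with TMM), XRCC6 at 0.19 ± 0.076 (−0.20 with TMM) and PRKDC at 0.082 ± 0.068 (−0.30 with TMM, not called). The greatest difference was that of FANCF at 2.32 ± 0.29 (1.94 with TMM) and the lowest was ERCC1 at −0.030 ± 0.070 (−0.41 with TMM, not called). Of 51 DNA replication genes, 37 were higher and 0 lower in TCHX (median log2 difference 0.48), or 15 higher and 6 lower with TMM scaling (median 0.092). The most abundant members were TOP2A at 0.66 ± 0.080 (0.27 with TMM), RRM1 at 0.28 ± 0.061 (−0.10 with TMM) and TYMS at −0.060 ± 0.11 (−0.45 with TMM, not called). The highest difference was TICRR at 2.23 ± 0.21 (1.85 with TMM). Over the 46 cell division genes with at least 20 normalized counts initially, the median share left at 5 h was 68.6% in T and 117% in TCHX, and over 51 DNA replication genes 66.1% and 98.9%. The 117% exceeds the initial level. These shares rest on the scaling and on sets of different times, and are not absolute.

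mRNAs of the translation and respiration machinery had medians near 0 and, with TMM scaling, mostly lower values. Of the 36 genes used for scaling, 6 were ribosomal protein genes, RPLP1 among them. The ribosomal values near 0 are thus not independent of that scaling. Of 81 tested of 86 listed ribosomal protein genes, 15 were higher and 1 lower in TCHX (median log2 difference 0.083), or 1 higher and 65 lower with TMM scaling (median −0.31). By initial level, the leading members were RPS27A at 0.31 ± 0.089 (−0.076 with TMM), RPL37A at 0.13 ± 0.062 (−0.26 with TMM, not called) and RPLP1 at −0.0027 ± 0.037 (−0.39 with TMM, not called). The largest value was RPS3A at 6.70 ± 0.99 (6.36 with TMM) and the lowest was RPL7A at −0.997 ± 0.85 (−1.36 with TMM, not called). The ribosomal protein gene called lower was RPL22L1. RPS3A rested on the replicate 2 TCHX libraries, with 272 at 3 h and 1182 at 5 h: it was at 2.24 ± 0.574 in T and 394 ± 682 in TCHX at 5 h (SD, n = 3 each), and without replicate 2 its difference was −3.21 (adjusted p 0.145). Of 18 other mRNAs with a 5′ terminal oligopyrimidine tract, 2 were higher and 1 lower in TCHX (median log2 difference 0.034), or 0 higher and 15 lower with TMM scaling (median −0.35). Its 3 most abundant mRNAs were EEF1A1 at −0.032 ± 0.27 (−0.42 with TMM, not called), EEF2 at 0.13 ± 0.053 (−0.26 with TMM) and TPT1 at 0.067 ± 0.057 (−0.32 with TMM, not called). The top of the list was NPM1 at 0.28 ± 0.044 (−0.11 with TMM) and the lowest was PABPC1 at −0.20 ± 0.079 (−0.59 with TMM). Of 68 tested of 81 listed respiratory chain subunits, 10 were higher and 0 lower in TCHX (median log2 difference 0.016), or 2 higher and 57 lower with TMM scaling (median −0.37). Those with the most counts at 0 h were UQCRQ at 0.14 ± 0.061 (−0.25 with TMM, not called), UQCRB at 0.084 ± 0.058 (−0.31 with TMM, not called) and UQCRH at −0.072 ± 0.055 (−0.46 with TMM, not called). Highest stood NDUFB9 at 1.70 ± 0.47 (1.32 with TMM) and the lowest was NDUFB3 at −1.01 ± 0.46 (−1.40 with TMM, not called). NDUFB9 likewise rested on 1 library, with 192 ± 318 in TCHX at 5 h, and without replicate 2 its difference was −0.59 (adjusted p 0.282). Of 15 tested of 17 listed selenoproteins, whose UGA codons can trigger nonsense-mediated decay, 4 were higher and 0 lower in TCHX (median log2 difference 0.071), or 1 higher and 9 lower with TMM scaling (median −0.31). Among the members, the highest initial levels were those of SELENOW at 0.048 ± 0.10 (−0.34 with TMM, not called), GPX1 at 0.071 ± 0.056 (−0.31 with TMM, not called) and SELENOH at 0.21 ± 0.062 (−0.18 with TMM). The greatest difference was that of SEPHS2 at 1.31 ± 0.13 (0.92 with TMM) and the lowest was SELENOT at −0.20 ± 0.21 (−0.58 with TMM, not called). Those called higher besides SEPHS2 and SELENOH were SELENOO at 0.37 ± 0.15 and SELENOS at 0.38 ± 0.13, both slightly negative with TMM scaling and named after their values were seen. SEPHS2, which makes the selenium donor, fell to 127 ± 14.5 in T and was at 486 ± 72.6 in TCHX at 5 h. Relative to the median of all genes, these lists lay at −0.25, −0.30, −0.32 and −0.26 with stable-gene scaling and at −0.26, −0.30, −0.33 and −0.27 with TMM scaling.

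Structural and noncoding transcripts gave mixed values. Of 40 tested of 66 listed replication-dependent histone genes, whose mRNAs mostly end in a stem loop without poly(A) and are poorly primed by this assay, 11 were higher and 0 lower in TCHX (median log2 difference 0.50), or 6 higher and 1 lower with TMM scaling (median 0.13). The most abundant members were H4C3 at 1.05 ± 0.15 (0.67 with TMM), H1-2 at 0.34 ± 0.15 (−0.047 with TMM, not called) and H2BC12 at −0.10 ± 0.093 (−0.49 with TMM, not called). The highest difference was H2BC17 at 3.17 ± 1.25 (3.04 with TMM) and the lowest was H4C6 (too few counts for an estimate). Of 11 polyadenylated histone variants, 8 were higher and 0 lower in TCHX (median log2 difference 0.20), or 1 higher and 4 lower with TMM scaling (median −0.18). By initial level, the leading members were H3-3B at 0.70 ± 0.050 (0.31 with TMM), H2AZ1 at 0.11 ± 0.074 (−0.28 with TMM, not called) and H2AZ2 at 0.17 ± 0.056 (−0.22 with TMM). The largest value was H3-5 at 1.34 ± 0.51 (0.96 with TMM) and the lowest was H3-3A at 0.074 ± 0.059 (−0.31 with TMM, not called). Of 10 tested of 11 listed tubulin genes, whose mRNAs are removed during translation when free tubulin is high, 4 were higher and 0 lower in TCHX (median log2 difference 0.22), or 0 higher and 1 lower with TMM scaling (median −0.17). Its 3 most abundant mRNAs were TUBA1B at 0.24 ± 0.088 (−0.15 with TMM), TUBA1C at 0.29 ± 0.090 (−0.10 with TMM) and TUBA1A at 0.20 ± 0.14 (−0.19 with TMM, not called). The top of the list was TUBB2A at 0.42 ± 0.093 (0.029 with TMM) and the lowest was TUBB4A at −0.18 ± 0.24 (−0.56 with TMM, not called). Of 26 tested of 31 listed snoRNA host genes, some of whose spliced transcripts are known targets of nonsense-mediated decay, 13 were higher and 0 lower in TCHX (median log2 difference 0.25), or 4 higher and 8 lower with TMM scaling (median −0.14). Those with the most counts at 0 h were SNHG25 at 0.015 ± 0.12 (−0.37 with TMM, not called), SNHG29 at 0.097 ± 0.078 (−0.29 with TMM, not called) and SNHG16 at 0.20 ± 0.062 (−0.18 with TMM). Highest stood SNHG7 at 1.42 ± 0.18 (1.03 with TMM) and the lowest was SNHG14 at −0.42 ± 0.30 (−0.80 with TMM, not called). The snoRNAs lie within these genes, so their counts are uncertain. Of 17 tested of 20 listed noncoding RNAs that host no snoRNA, 7 were higher and 0 lower in TCHX (median log2 difference 0.14), or 0 higher and 6 lower with TMM scaling (median −0.25). Among the members, the highest initial levels were those of MALAT1 at 0.14 ± 0.055 (−0.25 with TMM), NEAT1 at 0.11 ± 0.10 (−0.28 with TMM, not called) and KCNQ1OT1 at 0.29 ± 0.10 (−0.099 with TMM). The greatest difference was that of JPX at 1.43 ± 0.54 (1.06 with TMM) and the lowest was TTN-AS1 at −1.96 ± 0.97 (−2.42 with TMM, not called). KCNQ1OT1, a noncoding RNA that is not translated, fell in both arms, from 1880.5 ± 227 initially to 228 ± 42.1 in T and 323 ± 22.5 in TCHX at 5 h (SD, n = 3 each).

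**Figure D3:**
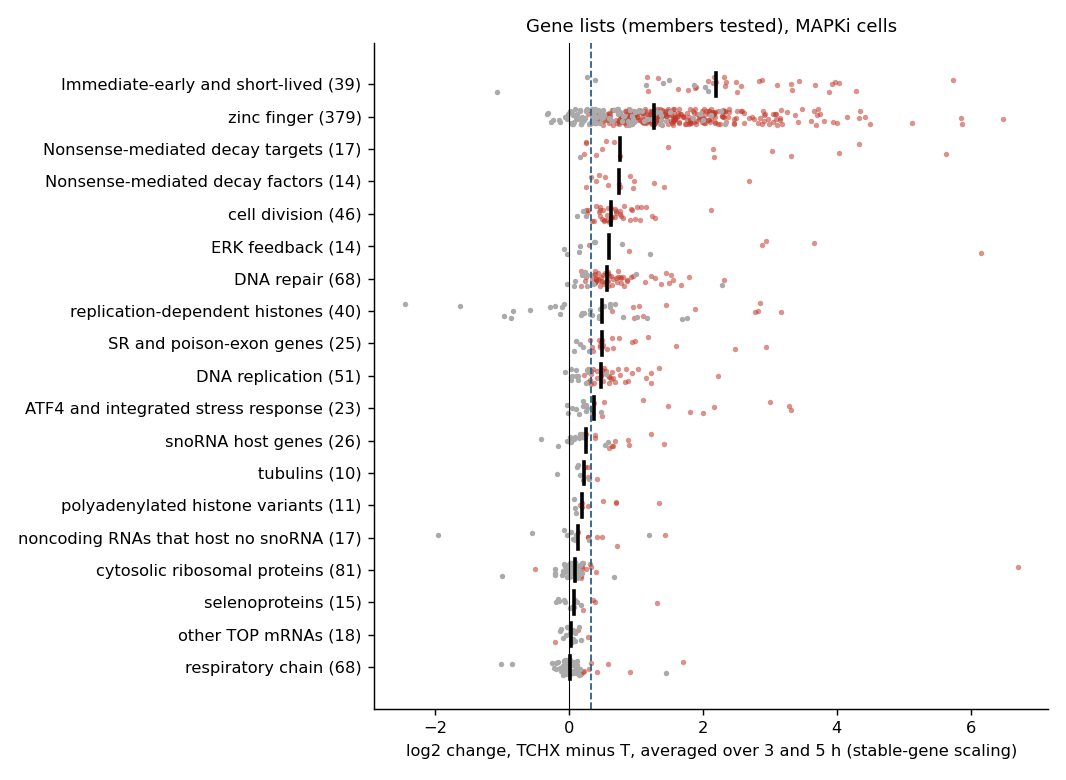
Log2 difference between TCHX and T, averaged over 3 and 5 h, of each measured member of 19 gene lists; red members were called, grey were not, and black bars mark the list medians. The dashed line is the median of all 14948 genes (0.34); the immediate-early and zinc finger lists lie farthest to its right.

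With stable-gene scaling few genes were lower in TCHX, 80 (0.535%), against 2261 (15.1%) with TMM scaling. Of the genes called lower, 5 met the criteria used for the 11 above. LEP, the hormone leptin (GRCh38 chr7:128241278-128257629, plus strand), had 0 normalized counts in the vehicle libraries at 0 h and appeared under triptolide, at 140.4, 103 and 119.8 in T and 80.9, 69.96 and 51.4 in TCHX at 3 h and at 55, 46.7 and 46.6 and 33.3, 26.8 and 41.6 at 5 h. Its difference was −0.70 ± 0.26 (adjusted p 0.0299), and without any 1 replicate the adjusted p rose to 0.0738 or more. The mitochondrial tRNA entry TRNW, one of the 36 genes used for scaling, had 2138 ± 97.3 in T and 1417 ± 181 in TCHX at 5 h, and TRNK, another mitochondrial tRNA, 316 ± 59.9 and 239 ± 30.8. TRNW was taken for scaling because its share rose in T, a choice that favours a lower value in TCHX. RPL22L1, a ribosomal protein paralog, had 2126 ± 357 and 1280.3 ± 248, and MOB1A, a Hippo pathway kinase activator, 298 ± 59.9 and 214 ± 13.9 (SD, n = 3 each). The differences were −0.54 ± 0.091 for TRNW, −0.35 ± 0.12 for TRNK, −0.50 ± 0.088 for RPL22L1 and −0.52 ± 0.16 for MOB1A. TMM scaling lowers all values by about the same amount, and being called lower with it was a criterion for these 5.

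Whether the difference between the arms grew with time depended on the scaling. With stable-gene scaling, at 3 h, 3331 genes (22.3%) were higher and 39 (0.261%) lower, with a median of 0.25. At 5 h, 5663 (37.9%) were higher and 61 (0.408%) lower (38.3% in all), with a median of 0.43. The medians at 3 h and 5 h were 0.14 and 0.12 when scaled on genes stable in both triptolide arms, and −0.035 and −0.038 with TMM scaling. With TMM scaling, 1548 (10.4%) were higher and 682 (4.56%) lower at 3 h, and 2512 (16.8%) and 1668 (11.2%) at 5 h. Tested directly per gene, the difference was larger at 5 h for 667 genes (4.46%) and smaller for 12 (0.0803%), or for 300 (2.01%) and 28 (0.187%) with TMM scaling. With genes stable in both arms, 178 were larger and 12 smaller. The total of 679 (4.54%) depended on single replicates, being 294, 388 and 219 without replicates 1, 2 and 3, as did the 3370 genes at 3 h, with 2234 and 2233 without replicates 1 and 2. Of the 11 leading genes, 3 passed this test. FADD fell from 38.2 to 5.24 in T and from 337 to 249 in TCHX on average, and its log2 difference grew by 2.51 ± 0.33 (adjusted p 9.42e-08). CCDC71 and SERTAD1 grew by 2.60 ± 0.59 and 2.41 ± 0.56. Among list members, BTG1 grew by 1.62 ± 0.18 and DUSP4 by 2.43 ± 0.27, while CLK1 went the other way, at −1.58 ± 0.44 (adjusted p 0.0191).

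The genes with the largest values for 5 h against 3 h rest on few reads. GORAB-AS1, LOC105375532, LOC105370941 and OR8A1 had 0 counts in the 3 TCHX libraries at 3 h, and their means in the other MAPKi T and TCHX groups did not exceed 7.63 normalized counts. SNORA19, PARS2, ATP6V1B1 and ZNF19 had their larger value at 3 h, where TCHX had 5.18, 10.6, 11.2 and 9.02 and T 0.338, 0, 1.29 and 0.201 normalized counts on average. PARS2, the mitochondrial prolyl-tRNA synthetase, fell in both arms, from 40.1 ± 4.88 initially to 1.26 ± 0.538 in TCHX at 5 h (SD, n = 3 each).

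The same inhibitors were given to DMSO-pretreated cells, where 4247 genes (28.4%) were higher and 70 (0.468%) lower in TCHX, with a median of 0.23. Tested directly, the TCHX minus T difference was larger in MAPKi for 1019 genes (6.82%) and smaller for 44 (0.294%), or for 421 (2.82%) and 132 (0.883%) with TMM scaling. The total of 1063 (7.11%) was 437, 385 and 674 without replicates 1, 2 and 3. All 11 leading genes were higher in TCHX in DMSO cells as well. Of these, 7 differed between pretreatments, among them JUN by 1.54 ± 0.37, SOX2 by 2.04 ± 0.46 and FADD by 1.26 ± 0.21 (adjusted p 0.00368, 0.00169 and 1.49e-05). The 11 were chosen by the size of their difference in MAPKi, which favours larger values there, so the count of 7 is not independent of that choice. GADD45B had a difference of 0.24 ± 1.54, which did not pass.

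BMF, a pro-apoptotic BH3-only protein (GRCh38 chr15:40087890-40108892, minus strand, with the antisense gene BMF-AS1), led the genes with a larger difference in MAPKi. It had 451, 331 and 369.5 initially in MAPKi, 13.6, 15 and 27.5 in T and 147, 141 and 179.7 in TCHX at 5 h, and all 6 TCHX libraries at 3 and 5 h lay above the T libraries of their time. In DMSO cells it was at most 2.36 on average in T or TCHX at either time, so the pretreatment difference of 4.36 ± 1.14 compares an expressed mRNA with a nearly absent one, and it was not called without replicate 1. CBX8, a Polycomb subunit, had 68.1 ± 13.1 initially and 19.6 ± 4.01 in TCHX against 0.969 ± 0.264 in T at 3 h. In DMSO cells it had 51.9 ± 19.1 in TCHX and 16.2 ± 9.06 in T at 3 h (SD, n = 3 each). PROSER2 had 19.3 ± 1.62 in TCHX and 0.769 ± 1.33 in T at 5 h in MAPKi, and 116 ± 8.79 and 49 ± 7.32 in DMSO. For CBX8 and PROSER2 these T levels in MAPKi are near 0, so the sizes of their pretreatment differences rest on few reads. For SLC16A1_1, named as in the table, the value rested on 199 ± 336 normalized counts in DMSO T at 5 h, and without replicate 3 it was −0.011. On the side of a smaller difference in MAPKi, PDE4B, a cAMP phosphodiesterase, had 0.69 ± 0.21 in MAPKi and 2.94 ± 0.23 in DMSO. SPRY1, an inhibitor of receptor tyrosine kinase signalling, had 1.3 ± 2.26 initially in MAPKi and so few reads that the −0.072 ± 0.46 there compares near-zero levels, against 1.84 ± 0.32 in DMSO. RPN2, an oligosaccharyltransferase subunit, rested on 1 library, with 4.29, 921 and 15.9 in MAPKi T at 5 h, and without replicate 2 its pretreatment difference was −2.31 (adjusted p 0.363).

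**Figure D4:**
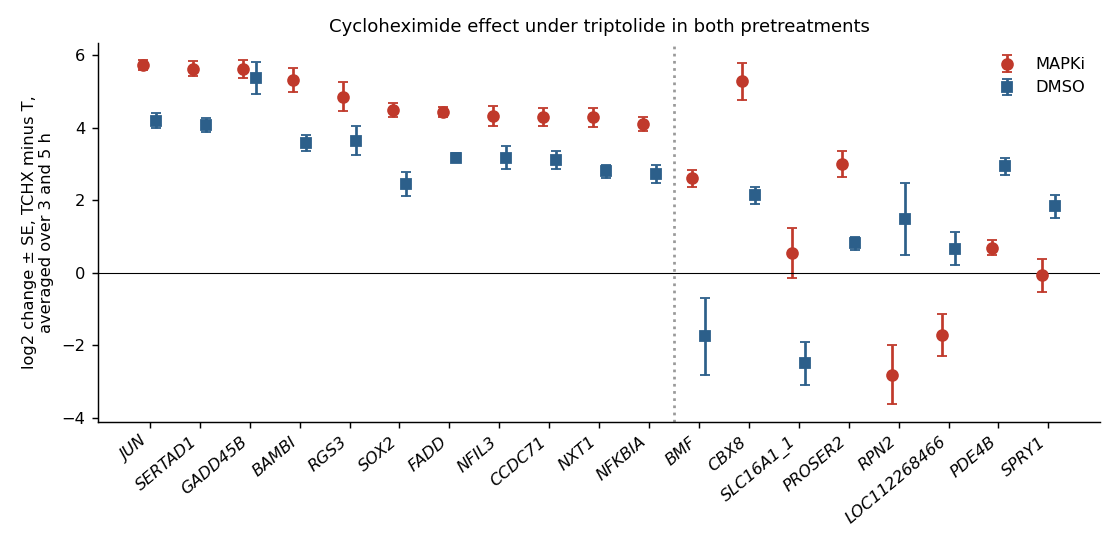
Log2 difference between TCHX and T, averaged over 3 and 5 h, with its SE, in MAPKi (red) and DMSO-pretreated cells (blue), for the 11 leading genes (left of the dotted line) and the 8 with the largest differences between pretreatments (right). JUN is at 5.73 in MAPKi and 4.19 in DMSO.

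Without triptolide, cycloheximide alone left 5425 genes (36.3%) higher and 333 (2.23%) lower than vehicle in MAPKi cells over 3 and 5 h, or 2383 and 2082 with TMM scaling. All 11 leading genes were higher there too, in libraries that share none with T or TCHX. NFKBIA and GADD45B were higher by 3.63 ± 0.12 and 3.36 ± 0.17, JUN by 1.98 ± 0.099 and FADD by 0.83 ± 0.10. PLK2, at 3.93 ± 0.14 under triptolide, was at 0.30 ± 0.11 without it. Across all genes, which are not independent replicates, Pearson's r between the 2 sets of log2 differences was 0.38 and Spearman's rho 0.50, and between MAPKi and DMSO under triptolide 0.52 and 0.52. The libraries behind these correlations share their scaling genes.

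The difference was larger for mRNAs that fell more in other libraries. Genes were put into 5 equal groups by the level left after 5 h of triptolide in DMSO-pretreated cells, which enter no comparison of T and TCHX in MAPKi cells. The triptolide libraries of the DMSO cells did help choose the scaling genes. An mRNA that does not fall leaves cycloheximide little loss to change, so part of such a gradient is fixed in advance. From the group with the least left to that with the most, the median log2 difference in MAPKi was 1.21, 0.58, 0.34, 0.21 and 0.10, and 84.1%, 72.2%, 57.1%, 39.8% and 20.8% of genes were higher in TCHX. In the first group, the median share left at 5 h was 22% in T and 64% in TCHX, and in the last 85% and 94.2%. Coding features moved the median less. Over 5 equal groups from low to high GC at the last base of codons, it was 0.45, 0.34, 0.31, 0.33 and 0.31. By protein length it rose from 0.22 to 0.42. By the share of Asp plus Glu it was 0.28, 0.34, 0.36, 0.39 and 0.35. Across 10081 coding genes, Spearman's rho was −0.061, 0.15 and 0.07, given as a description.

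Genes with few exons had higher medians. The split by exons within these groups was chosen after the values were seen. The median log2 difference was 0.96 over 168 coding genes with 1 exon in the reference transcript, 0.85 over 408 with 2, 0.48 over 575 with 3, and 0.32, 0.31 and 0.33 over genes with 4 to 6, 7 to 10 and 11 or more. JUN and SOX2 have 1 exon, and SERTAD1, FADD, NFIL3, CCDC71 and NXT1 have 2. Within the group with the least left, the median was 1.67 over 309 genes with 1 or 2 exons, 1.70 over 202 with 3 and 1.19 over 1294 with 4 or more. In the next group it was 0.62, 0.59 and 0.60. Few of the genes with 1 or 2 exons fell in the slower groups, with 39, 50 and 42 in the last 3.

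**Figure D5:**
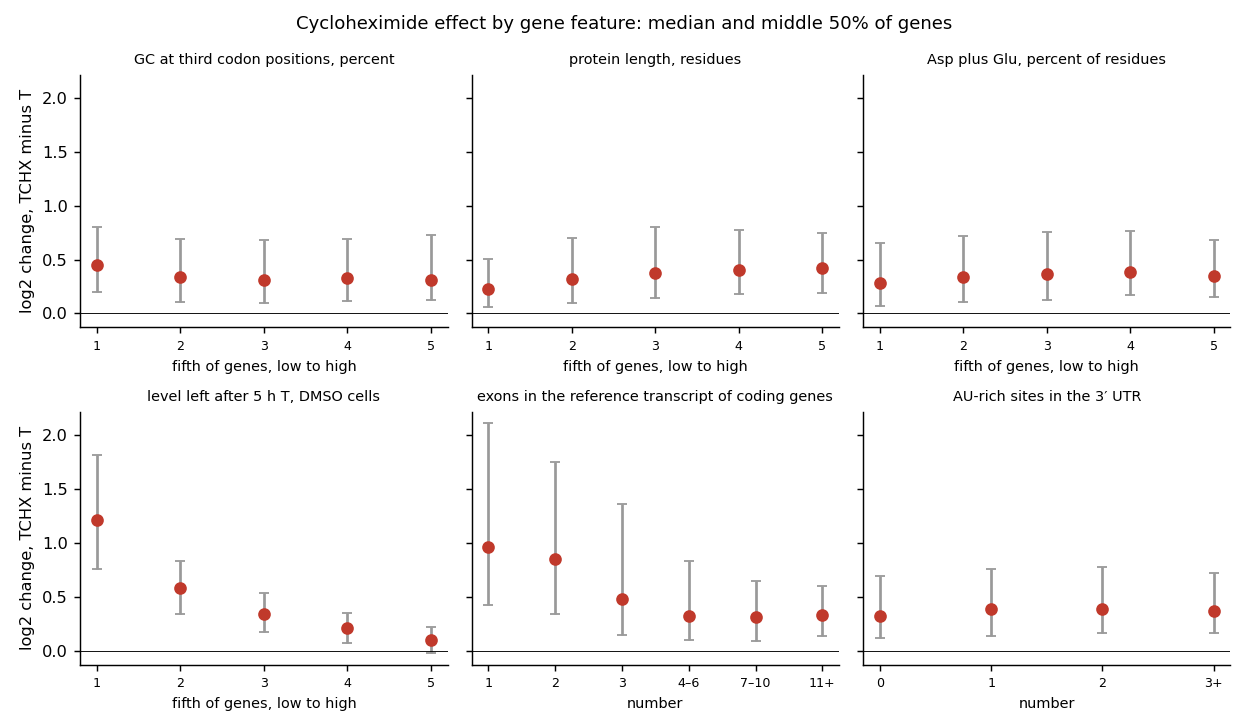
Median log2 difference between TCHX and T in MAPKi cells (points) with the middle 50% of genes (bars), by 5 equal groups of genes for each of 4 features (1 the lowest) and by number of exons and of AU-rich sites. The fall from 1.21 to 0.10 with the level left in DMSO cells and from 0.96 to 0.33 with exon number are the largest.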

How the data were processed

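The authors deposited raw counts of reads per gene for 96 libraries (44659 gene entries, 0 of them naming no gene). Per the labels and their processing notes, QuantSeq reads were trimmed with fastp 0.20.1, aligned to GRCh38.p13 with HISAT2 2.2.1 and counted with HTSeq 0.13.5. ERCC spike-in RNA was added, but the table holds 0 such entries. Here the counts were fitted with edgeR 4.0.16 (quasi-likelihood test, R 4.3.3, limma 3.58.1), with 1 mean per group over all 96 libraries, genes filtered by group and Benjamini-Hochberg adjustment. Size factors were DESeq2 1.42.0 median ratios over 36 genes with over 0.2 CPM at 0 h that rose at least 1.1 times at 3 and 5 h of triptolide. This scaling assumes that those genes were not removed, so other scalings, DESeq2, a replicate block, no filter, the 12 libraries alone and leaving out each replicate were tried. Exons, coding sequences and 3′ UTRs came from GENCODE release 44 and symbols were matched to it. Named genes were the largest changes called with both scalings, with at least 50 normalized counts and arms that did not overlap, the largest called for time and pretreatment, and the most abundant and extreme members of each list. Members and lists were chosen with earlier results of these data known. Of the genes this rule picks, 2 are not reported here.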

Additional observations from a re-analysis of the deposited data

Results flagged for a closer look

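The effect of cycloheximide under triptolide differed between 5 h and 3 h for 679 genes and between MAPKi and DMSO pretreatment for 1063, by tests of the difference itself. For time, the log2 difference was larger at 5 h by 2.41 for SERTAD1, 2.51 for FADD, 2.60 for CCDC71 and 3.82 for LOC112268466. It was larger by 9.08 for GORAB-AS1, 8.16 for LOC105375532, 6.66 for LOC105370941 and 6.08 for OR8A1, each with 0 counts in the TCHX libraries at 3 h, so these sizes depend on the prior count of the fit. It was smaller at 5 h, at −6.20 for SNORA19, −6.13 for PARS2, −5.16 for ATP6V1B1 and −4.42 for ZNF19, again on few reads.

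For pretreatment, the difference was larger in MAPKi by 1.54 for JUN, 1.56 for SERTAD1, 1.74 for BAMBI, 2.04 for SOX2, 1.26 for FADD, 1.49 for NXT1 and 1.37 for NFKBIA. These genes had been chosen for large differences in MAPKi, which favours this direction. BMF, CBX8, SLC16A1_1 and PROSER2 stood at 4.36, 3.15, 3.04 and 2.2, where BMF was lost without replicate 1 and SLC16A1_1 without any 1 replicate. OR8A1 was at −3.15, RPN2 at −4.29, LOC112268466 at −2.38, PDE4B at −2.25 and SPRY1 at −1.91, and RPN2 was lost without any 1 replicate.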

How the results depend on the processing

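With TMM scaling and with DESeq2 size factors over all genes, the difference in the median share left was −1.66 and −0.678 percentage points at 3 h and −0.674 and −0.222 at 5 h, the reverse of the stable-gene value, by the construction of scalings that centre all genes. Genes called at 3 h numbered 2230 with TMM and 2186 with DESeq2 size factors, those called for 5 h against 3 h 328 and 311, and those for MAPKi against DMSO 553 and 603. Scaling on genes stable in both triptolide arms gave 3535 at 5 h, 190 for 5 h against 3 h and 590 for MAPKi against DMSO, genes stable at 3 or 5 h gave 384 for 5 h against 3 h, and the 12 libraries alone, with fewer samples, gave 225. At 0 h, 1 gene was called with TMM, DESeq2 size factors, total counts, mitochondrial rRNA and both other sets of stable genes, and 30 with no filter on low counts. Leaving out 1 replicate gave 5162 to 5452 genes on average over both times, 2233 to 2834 at 3 h, 4590 to 4901 at 5 h, 219 to 388 for 5 h against 3 h, 0 to 4 at 0 h, 385 to 674 for MAPKi against DMSO and 4447 to 4959 for cycloheximide alone, from fewer samples, and 14.1 to 15.2 and 22.8 to 24.9 percentage points at 3 and 5 h. The same differences were 7.16 and 6.61 at 3 and 5 h with genes stable in both triptolide arms, 6.48 and 10.8 with total counts, 17.2 and 23.5 with mitochondrial rRNA, 16.5 and 19.99 with genes stable at 3 or 5 h, and 22.4 and 29.8 against each arm's own 0 h. Where no construction shows it, the cause was not tested.

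The labels give a shared prefix with each replicate number across all groups, but do not say that it marks a culture, batch or day. Same-numbered libraries correlated in their deviations at −0.133 to 0.319 (median 0.0988, 18 pairs), others at −0.406 to 0.325 (median −0.0485, 36 pairs), and a library correlated best with its own number in 21 of 36 comparisons, a hint of a shared source. Since some same-numbered pairs were negatively correlated and nothing states a pairing, the block was kept as an alternative, and a shared batch was not settled. With a replicate block, 6382 genes were called on average, 3501 at 3 h, 5894 at 5 h, 771 for 5 h against 3 h, 1 at 0 h and 1170 for MAPKi against DMSO.

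Of 208 results of the 11 higher and 5 lower leading genes under the alternatives, 200 kept their call. Those with TMM scaling were fixed in advance, since a call with TMM scaling was a criterion for these genes. The other alternatives use the libraries that chose the genes, so this count is not an independent check. Over all 119 results of named genes, 1244 alternatives kept their side of the threshold, 165 lost the call, 40 gained it and 84 changed sign where at least 1 of the fits made a call. Sign changes between values that neither fit called are counted among the 1244 and are not listed here. Among those 84 sign changes, the log2 differences with TMM scaling were SNHG25 −0.37, SNHG29 −0.29, SNHG16 −0.18, UPP1 −0.17, TMEM183A −0.23, SRSF9 −0.31, SLC7A5 −0.24, TUBA1B −0.15, TUBA1C −0.10, H2AZ1 −0.28, H2AZ2 −0.22, H3-3A −0.31, EEF2 −0.26, TPT1 −0.32, NPM1 −0.11, SELENOW −0.34, GPX1 −0.31, SELENOH −0.18, RRM1 −0.10, XRCC5 −0.21, XRCC6 −0.20, PRKDC −0.30, PTTG1 −0.047, MALAT1 −0.25, NEAT1 −0.28, KCNQ1OT1 −0.099, ZNF106 −0.27, UQCRQ −0.25, UQCRB −0.31, RPS27A −0.076 and RPL37A −0.26. With DESeq2 size factors they were SNHG25 −0.36, SNHG29 −0.28, SNHG16 −0.17, UPP1 −0.16, SRSF9 −0.30, SLC7A5 −0.23, TUBA1B −0.14, TUBA1C −0.090, H2AZ1 −0.27, H2AZ2 −0.21, H3-3A −0.30, EEF2 −0.25, TPT1 −0.31, NPM1 −0.099, SELENOW −0.33, GPX1 −0.30, SELENOH −0.17, RRM1 −0.094, XRCC5 −0.20, XRCC6 −0.19, PRKDC −0.29, PTTG1 −0.037, MALAT1 −0.24, NEAT1 −0.27, KCNQ1OT1 −0.088, ZNF106 −0.26, UQCRQ −0.24, UQCRB −0.29, RPS27A −0.065 and RPL37A −0.25. With total counts they were SNHG16 −0.027, UPP1 −0.0097, H2AZ2 −0.060, EEF2 −0.098, TPT1 −0.16, GPX1 −0.15, SELENOH −0.020, XRCC5 −0.048, XRCC6 −0.041, MALAT1 −0.092 and UQCRB −0.15, and with genes stable in both arms SNHG16 −0.016, H2AZ2 −0.043, EEF2 −0.083, TPT1 −0.15, SELENOH −0.010, XRCC5 −0.037, XRCC6 −0.029, MALAT1 −0.076 and UQCRB −0.14. Leaving out 1 replicate gave −0.588 to 2.25 for NDUFB9, −3.21 to 9.04 for RPS3A and −0.011 to 4.11 for SLC16A1_1. Depths of 4744272 counts and more limit genes of a few counts, whose folds are uncertain.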

Other observations

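Of 4 markers of dedifferentiated melanoma cells, which have lost pigment genes, SOX9 alone was called higher in TCHX. The summed level of the 4 was 2339.97 to 2668 normalized counts in the vehicle libraries at 0 h, 859 to 1096 in T and 1518 to 2204 in TCHX, with no overlap between T and TCHX. The log2 differences were AXL 0.13 ± 0.13 (not called), NGFR 0.054 ± 0.14 (not called), SOX9 3.23 ± 0.10 and EGFR 0.071 ± 0.48 (not called). SOX9, a neural crest transcription factor, had 1512 ± 91.4 normalized counts at 0 h (SD, n = 3). Of the melanocyte lineage markers, the differences were SOX10 2.06 ± 0.089, MITF 1.27 ± 0.089, DCT −0.016 ± 0.14 (not called), S100B 0.011 ± 0.070 (not called), S100A1 −0.077 ± 0.13 (not called), TFAP2A 1.40 ± 0.12, PAX3 1.42 ± 0.15 and PMEL −0.28 ± 0.25 (not called), against a median of 0.34 over all genes. S100B was one of the genes used for stable-gene scaling, so its value near 0 is not independent of it. With TMM scaling, SOX9 was at 2.85, SOX10 at 1.68, MITF at 0.88, TFAP2A at 1.01 and PAX3 at 1.04, while the uncalled genes with a positive value turned negative. These 4 and 8 genes were listed as markers, and the 8 are those with the highest initial levels.

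Other mRNAs with 0 counts in all 6 T libraries were present in TCHX. Against a floor of 3 counts over the 6 T libraries, DEPP1 was at least 27.1-fold higher, RYBP, a Polycomb subunit, at least 13-fold, NUAK2, a kinase of the AMPK family, at least 10.2-fold and RGS16, a regulator of G protein signalling, at least 9.37-fold. These 4 were chosen after their values were seen, and their TCHX libraries held 61, 39, 20 and 22 counts in all.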
